A study of Glycine max with 12 samples.

Results

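The 225 gene models described here (211 loci of soybean, Glycine max) were higher in the defective than in the standard seed coat of both genetic backgrounds in seeds of 100-200 mg, where in at least 1 background they did not exceed 2 times the highest level of the standard line. They were taken from 78773 models. A model was kept when at 100-200 mg at least 1 library of each isoline pair held 5 RPKM (reads scaled for model length and library size) and the defective library held at least 2 times the RPKM of the standard library in both backgrounds, and when in at least 1 background the defective library at 100-200 mg was no more than 2 times the highest of the 3 standard libraries of that background. Of all models past 5 RPKM at 100-200 mg, 3.03% were higher and 1.74% lower by at least 2-fold in Clark defective, 5.78% and 8.5% in Harosoy defective, and 1.29% and 0.868% in both. The first criterion was met by 288 models and the second left 241, of which 16 models of 6 loci studied on their own (the early wall protein PRP1 among them) and of the fasciclin-like family were set aside. The second criterion was met in Clark by 179 members, in Harosoy by 197 and in both by 151.

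The 4 near-isogenic lines were sampled at 3 seed weight stages, with 1 RNA-Seq library of pooled seed coats for each line and stage, 12 libraries in all. Clark standard (CS) carries i R T and has a self-black coat, and Clark defective (CD) carries the same alleles with the mutation designated Def. Harosoy standard (HS) carries I r t and has a yellow coat, and Harosoy defective (HD) adds Def to that genotype. Def, an unknown gene or genes behind the net pattern of cracks in the coat, was found in plant introductions and brought into the cultivars by backcrossing. Each defective line is 1 line, and the background is the only repetition. Within a pair there is therefore no replicate error and no p-value, and colour alleles, RNA extraction and background cannot be told apart. The libraries of 100-200 mg were sequenced on an earlier instrument with shorter reads than those of the other stages, so that a step between stages holds the platform as well, whereas both libraries of a pair came from the same instrument type and read length. The file headers give the CS and CD libraries of 100-200 mg different numbered tags and the HS and HD libraries the same one. What the tags stand for is not given. Whatever they mark cannot be told apart from genotype in that Clark pair. Each library held between 47.5 M (CD, 400-500 mg) and 113 M (CS, 100-200 mg) alignments (M, mega), and the least covered member still had 78 alignments in HD and 92 in CD at 100-200 mg. PRP2, a wall protein of the older seed coat, was at 4.12 to 24.1 RPKM at 50-100 mg and at 1313 to 4584 RPKM at 400-500 mg. As possible markers of cotyledon tissue, 15 models outside the list annotated with glycinin, conglycinin or storage summed to 843 to 4596 RPKM. That sum was 1644 RPKM in CS and 1953 in CD, and 1853 in HS and 2298 in HD, at 100-200 mg. At 50-100 mg it was 4596 RPKM in CS and 2204 in CD, and 2337 in HS and 2263 in HD, and at 400-500 mg 967 in CS and 1949 in CD, and 1389 in HS and 843 in HD. In all 4 lines the sum was thus lower at 400-500 mg than at 50-100 mg. Whether it tracks cotyledon RNA, and whether cotyledon RNA had a part in the differences, was not tested.

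As background, the young legume seed coat first grows by cell division and by loosening of its walls, in which expansins, xyloglucan endotransglucosylases and pectin-modifying enzymes take part, and later stops dividing, thickens its walls and hardens. Hydroxyproline-rich and arabinogalactan proteins are structural glycoproteins of the wall, and dirigent proteins guide the coupling of phenolic radicals into lignans and lignin-like polymers. Genes of the growth phase are thus high in light seeds and low in heavy ones.

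Most members were early genes, and their median level at 100-200 mg, the stage that chose them, was near that of 50-100 mg in the defective lines and lower in the standard lines. The median member in CS went from 19.4 RPKM at 50-100 mg to 8.0 at 100-200 mg and 1.20 at 400-500 mg. In HS the same medians were 19.8, 4.22 and 0.959 RPKM. In CD they were 21.5, 19 and 1.76 RPKM, and in HD 21.1, 19.3 and 0.656 RPKM. The medians of the 4 lines lay close together at 50-100 mg, apart at 100-200 mg, where the gap is what chose the members, and low but again apart at 400-500 mg. From 50-100 to 100-200 mg the level was at least 2-fold lower for 52.9% of the 225 members in CS and for 75.1% in HS, against 10.2% in CD and 9.33% in HD. It was at least 2-fold higher for 40 in CD and 39 in HD, and for 3 in CS and 0 in HS. These counts rest on the libraries that chose the members and are a description.

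**Figure D1:**
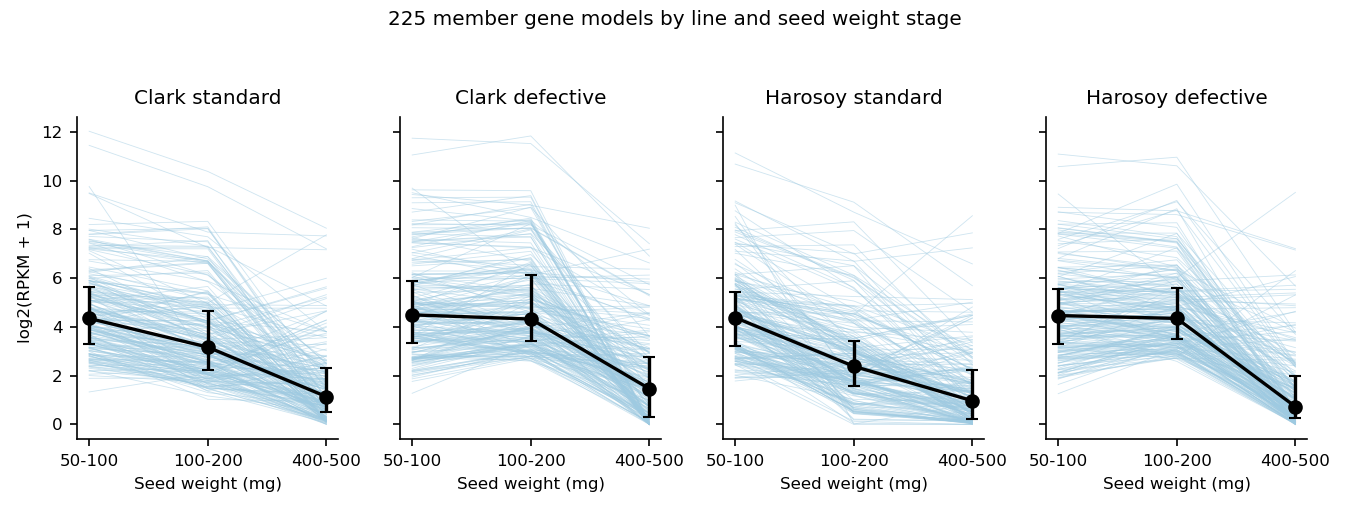
Level of the 225 members, as log2(RPKM + 1), against seed weight stage in the 4 lines; each thin line is 1 gene model in 1 library per stage, and points with bars are the median and the quartiles over models. The median member held 19 RPKM in CD and 19.3 in HD at 100-200 mg, against 8.0 in CS and 4.22 in HS. At 50-100 mg the medians of the 4 lines lay between 19.4 and 21.5 RPKM, though single members differed in both directions.

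The name early fits most members but not all. The highest standard library was the one of 50-100 mg for 186 members in Clark and 203 in Harosoy, and in both for 176. It was the one of 400-500 mg in both backgrounds for 10. The choice of members favours such peaks, because the range criterion asks for a higher standard library at another stage whenever the 100-200 mg libraries differ by more than 2-fold. In the defective lines the highest library was more often that of 100-200 mg, for 58.7% of members in CD and 52.9% in HD. The 100-200 mg library of the defective line was at or below the highest standard library for 88 members in Clark and 93 in Harosoy, with a median ratio of 1.18 and 1.11.

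To place the 100-200 mg level between the outer stages of its own line, a position of 0 was given to the 400-500 mg level and 1 to the 50-100 mg level, on log2(RPKM + 1), for members whose level dropped at least 4-fold in HS (for the Clark lines) or in CS (for the Harosoy lines) and whose level in the line itself dropped by 1 or more in log2. Members that stayed high late in a line, such as the expansin Glyma02g12140.1 in CD, thus have no position there. The 100-200 mg libraries chose the members, so a higher position in the defective lines follows from the choice and the values are a description. The median position was 0.70 in CS (167 members, quartiles 0.55 and 0.90) and 0.46 in HS (162 members, quartiles 0.24 and 0.63). It was 1.02 in CD (159 members, quartiles 0.88 and 1.18) and 0.98 in HD (158 members, quartiles 0.87 and 1.08). The middle library lay at or above the 50-100 mg level for 88 members in CD and 74 in HD. The lower median in HS than in CS is a description as well. The range criterion was met in Harosoy by 197 members and in Clark by 179. A member that met it only in Harosoy needed a higher HS library at another stage. The CS and HS medians also rest on differently chosen members. No member with a position was at or below its 400-500 mg level in a defective line.

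**Figure D2:**
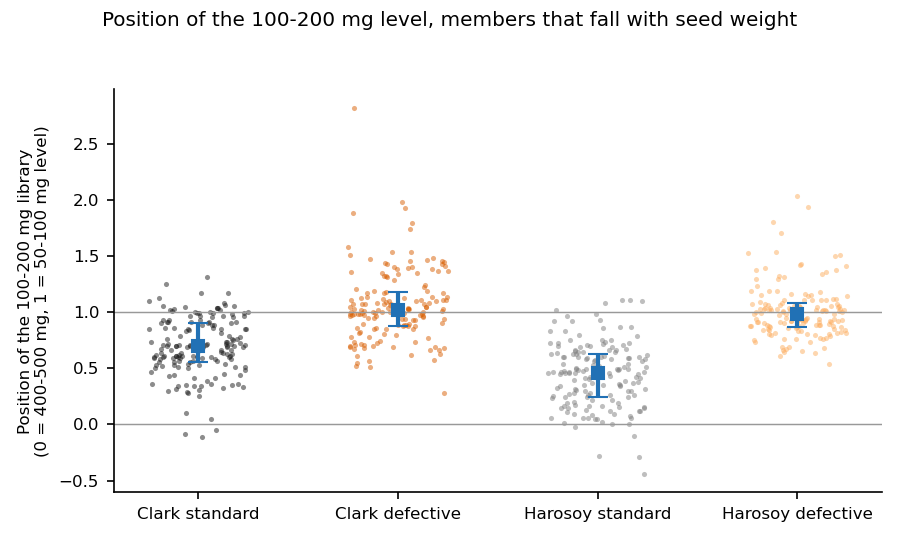
Position of the 100-200 mg level of each member between the 400-500 mg (0) and 50-100 mg (1) levels of its line, 1 point per gene model, with squares and bars for the median and the quartiles. The medians were 0.70 in CS, 0.46 in HS, 1.02 in CD and 0.98 in HD.

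The fall at the end of development took place in the defective lines as well. The libraries of 50-100 and 400-500 mg of the defective lines were not used to choose members, and the contrast between them was tested with limma on log2(RPKM + 1) across 46237 models, 4 line blocks and a separate stage effect for each genotype. From 50-100 to 400-500 mg 181 of the 225 members fell (80.4%) and 7 rose at an adjusted p below 0.05 in CD and HD, where 17.9% of all tested models fell and 10% rose. The background holds every model that reached 1 RPKM in 2 or more libraries. Every member held at least 5 RPKM in CD and HD at 100-200 mg, so the shares are not matched for level. The median member was lower by 2.90 on the log2 scale, with a median standard error of 0.41, and the median of all tested models was -0.05. In the standard lines 192 members fell and 6 rose, with a background of 17.3% and 12.3%, but those libraries also set the range criterion. All 181 members that fell in the defective lines fell in the standard lines too. The fit takes its error from all 12 libraries, those the choice of members used included. With the 4 defective libraries of these stages alone, an alternative added after seeing the data with 1 residual degree of freedom, 127 members fell (56.4%) by the limma adjusted p, against 6.99% of all tested models. Both defective lines were lower at 400-500 mg than at 50-100 mg for 194 members (86.2%). The repetition is 1 library from each of 2 backgrounds, and the standard lines that shaped the list share their developmental course with the defective ones.

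The members with the lowest adjusted p in this contrast show the course. Glyma17g17970.1, annotated as the arabinogalactan protein AGP18, was at 59.1, 9.48 and 0.708 RPKM in CS from the lightest to the heaviest seeds and at 73.6, 23.2 and 1.28 in CD. In HS it was at 67.7, 8.91 and 0.767 RPKM and in HD at 66.6, 24.7 and 0.259. It fell by 5.39 ± 0.23 (SE) in the defective lines, with a limma adjusted p of 9.98e-05. AGP18 was already low at 100-200 mg in all 4 lines, and the defective libraries were 2.44 and 2.77 times the standard ones, and both lay below their 50-100 mg level. Glyma20g27040.1, which has no annotation in the study's tables, was at 21.7, 4.81 and 0.180 RPKM in CS, 27.6, 11.9 and 0.494 in CD, 25.9, 4.82 and 0.422 in HS and 36, 9.77 and 0.173 in HD. Glyma04g09740.1, annotated as a chloroplast nucleoid DNA-binding protein, showed the same order, with 7.21 RPKM in CS, 17.2 in CD, 7.5 in HS and 16.2 in HD at 100-200 mg. Glyma07g17030.1 and Glyma18g53150.1, both annotated as beta-conglycinin, a storage protein of the seed, completed the 5. Glyma18g53150.1 was at 139, 30.1 and 0.715 RPKM in CS and at 131, 80.2 and 0.752 in CD, and in HS at 63.8, 8.39 and 0.0842 against 61.5, 71.8 and 0.0555 in HD. These models were high in the lightest seeds and near 0 in the heaviest, the opposite of what is known of beta-conglycinin in the cotyledon.

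The most abundant members were a neighbouring pair of hydroxyproline-rich protein genes on chromosome 11. Glyma11g21610.1 was at 4161, 1328 and 263 RPKM in CS and at 3416, 2933 and 169 in CD. In HS it was at 2244, 416 and 94.9 RPKM and in HD at 2174, 1557 and 50.1. Glyma11g21620.1 was at 2787, 860.0 and 146 RPKM in CS and 2119, 3641 and 118.7 in CD, and at 1635, 553 and 50.5 in HS and 1520.1, 1990.0 and 12.7 in HD. At 100-200 mg the defective libraries stood above the standard libraries of 100-200 and 400-500 mg for both genes, and for Glyma11g21620.1 they stood above the 50-100 mg standard library of their own background as well. Both were lower in HD than in HS at 400-500 mg. The rest of the 10 most abundant members were unknown proteins, a lipid binding protein and a gibberellin-regulated protein (Glyma13g08890.1), which is described with the next groups.

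**Figure D3:**
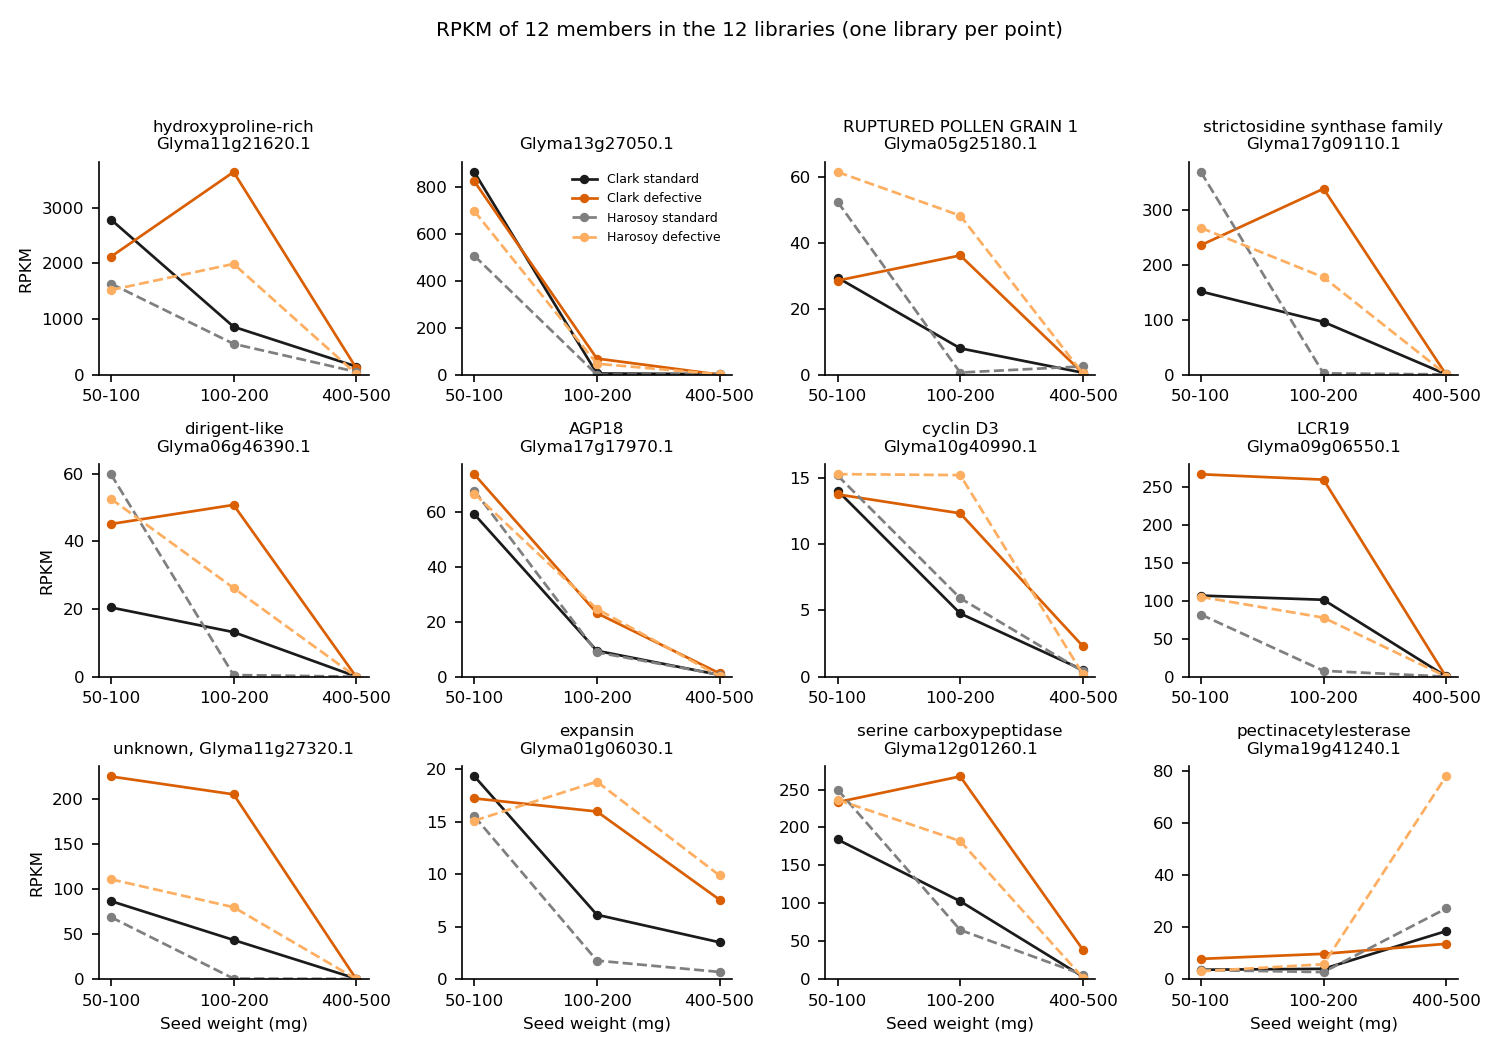
RPKM of 12 members (vertical axes start at 0, scales differ between panels) against seed weight stage in the 4 lines, 1 library per point. At 100-200 mg the defective libraries lie above their standard partners in every panel, and most levels are close to 0 at 400-500 mg. Exceptions include an expansin in the defective lines, a serine carboxypeptidase in CD, at 38.8 RPKM, and a pectin acetylesterase in all 4 lines.

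The steepest differences at 100-200 mg were those in HS, where several members had nearly gone. Glyma13g27050.1, an unknown protein, was at 865, 4.90 and 2.44 RPKM in CS and 825, 68.7 and 0.0516 in CD, and at 508, 0.0120 (1 alignment) and 0.794 in HS and 698, 46.7 and 1.20 in HD. Its level at 100-200 mg was thus far below the youngest stage in the defective lines too. The RUPTURED POLLEN GRAIN 1 models, named for an Arabidopsis gene that encodes a sugar transporter of the plasma membrane, kept theirs. The paper also lists Glyma05g25180.1 and Glyma08g08200.1 under another name, as a senescence-associated protein. Glyma05g25180.1 was at 29.5, 8.0 and 0.593 RPKM in CS and 28.6, 36.2 and 0.468 in CD, and at 52.6, 0.637 and 2.51 in HS and 61.6, 48.4 and 0.380 in HD. Its copy Glyma08g08200.1 was 4.27 times higher in CD than in CS and 35.2 times higher in HD than in HS at 100-200 mg. At 400-500 mg this copy was at 6.63 RPKM in HS and 0.525 in HD, the reverse order.

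Strictosidine synthase family proteins and a cytochrome P450 followed the same course. Glyma17g09110.1 was at 151, 95.8 and 0.632 RPKM in CS and 235, 338 and 0.0933 in CD, and at 368, 2.33 and 0.414 in HS and 267, 177 and 0.50 in HD. The homologous strictosidine synthase model Glyma05g07630.1 held 105 RPKM in CS, 312 in CD, 2.45 in HS and 154 in HD at 100-200 mg. The ratio of these 2 models lay between 0.804 and 1.35 in all 12 libraries, and because a read could be counted at many places they are not independent measurements. Glyma09g41940.1, a cytochrome P450 monooxygenase, was at 3.11 RPKM in CS, 12.5 in CD, 1.80 in HS and 47.4 in HD at 100-200 mg, from 38.6 to 42.7 in all lines at 50-100 mg. In HD this level was above that of every library of 50-100 mg, whereas in CD it was not.

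Members of wall families were present in small numbers. The family lists were drawn by name from the study's annotation tables, which hold genes picked on these libraries, so their counts are not independent evidence of a direction. Members were 4 of the 13 expansin models, 4 of the 35 xyloglucan endotransglucosylase models, 5 of 33 pectin-related, 3 of 21 proline-rich and extensin-like, 3 of 4 dirigent and 4 of 10 GDSL lipase models. At 100-200 mg 1 expansin and 4 proline-rich models were lower in both defective lines and none of the other families named here was. In the late contrast all 4 xyloglucan, all 3 proline-rich, all 3 dirigent and all 4 GDSL members fell in the defective lines. Of the 4 expansins 2 fell, and of the pectin-related members 3 fell and 1 rose. Of the whole lists, 13 of 35 xyloglucan, 12 of 21 proline-rich, 3 of 4 dirigent and 6 of 10 GDSL models fell. So did 6 of 13 expansin and 14 of 33 pectin-related models. Those that rose were 4 xyloglucan, 4 proline-rich, 2 expansin and 4 pectin-related models. Of all 225 members 80.4% fell, and differences between families were not tested.

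Of the 3 dirigent-like members, 2 had a much larger ratio in Harosoy than in Clark at 100-200 mg. Glyma12g10390.1 was at 180, 116.7 and 0.566 RPKM in CS and 206, 351 and 0.0288 in CD, and at 289, 8.77 and 0.354 in HS and 296, 308 and 0.490 in HD. Glyma06g46390.1 was at 20.5, 13.2 and 0.0893 RPKM in CS and 45.1, 50.7 and 0 in CD, and at 59.8, 0.543 and 0.0596 in HS and 52.5, 26.2 and 0 in HD. At 100-200 mg both genes were far lower in HS than at 50-100 mg and less so in CS, whereas CD and HD stood above their standard partners. The third, Glyma02g26610.1, had similar ratios, with 8.59 RPKM in CS, 30.3 in CD, 3.90 in HS and 13 in HD. Among the GDSL lipases, esterases of lipid and cutin metabolism, Glyma12g00520.1 was highest at 100-200 mg in CS (41.8 RPKM), CD (99.4) and HD (83.0) but not in HS (13.1, from 46.4 at 50-100 mg). Glyma09g36850.1 was at 179 RPKM in CS, 473 in CD, 46.7 in HS and 270 in HD at 100-200 mg.

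Xyloglucan endotransglucosylases, which cut and rejoin the xyloglucan that tethers cellulose, split into 2 copy pairs. Glyma12g32390.1 and Glyma13g38040.1 were higher in CD than in CS at 50-100 mg already, with 32.4 against 14.0 RPKM and 52.3 against 18.3 RPKM, and alike in HD and HS (24.3 against 22.5 and 21.5 against 18.0). Glyma12g30200.1 and Glyma13g39710.1 were not, with 5.59 against 6.99 RPKM and 12 against 15.3 in Clark. At 100-200 mg the latter held 1.97 RPKM in CS, 9.37 in CD, 1.46 in HS and 14.1 in HD.

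Of the 4 members in the expansin list, proteins that loosen the wall in growing cells, 2 were still higher in both defective lines at 400-500 mg. Glyma01g06030.1 was at 19.4, 6.14 and 3.51 RPKM in CS and 17.2, 16 and 7.57 in CD, and at 15.5, 1.76 and 0.679 in HS and 15.1, 18.8 and 9.88 in HD. Both defective libraries were thus higher at 100-200 and at 400-500 mg and the 4 libraries lay between 15.1 and 19.4 RPKM at 50-100 mg. Glyma02g12140.1 was at 33.7, 10.3 and 11.7 RPKM in CS and 29.2, 26.7 and 22.4 in CD, and at 28.5, 2.77 and 1.77 in HS and 25.7, 32.6 and 29.7 in HD. The change of Glyma02g12140.1 from 50-100 to 400-500 mg was -0.08 ± 0.41 (SE) in the defective lines, with a limma adjusted p of 0.914. The other 2 were near 0 at that stage, Glyma06g07300.1 with 0.0535 RPKM in CS, 0 in CD, 0.0536 in HS and 0 in HD, and Glyma12g06730.1 with 0.0682 to 0.319 RPKM. For Glyma02g12140.1 the change was -2.43 in the standard lines, and the difference between these changes was not tested. Glyma01g06030.1 and its second splice model were the 2 members past 5 RPKM and 2-fold higher in both backgrounds at 400-500 mg, and 0 members were lower in both, where 0.208% and 0.125% of all models were.

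A further list held cell division genes. The 6 members among 26 models of that list were the cyclin D3 model Glyma10g40990.1, which belongs to the cyclins that drive entry into the cell cycle, and 5 histone H3 models, and all 6 fell in the defective lines in the late contrast, as did 22 of the 26 listed models, while 2 of the 26 rose. Glyma10g40990.1 was at 14.0, 4.77 and 0.519 RPKM in CS and 13.7, 12.3 and 2.31 in CD, and at 15.2, 5.92 and 0.412 in HS and 15.3, 15.2 and 0.212 in HD. The histone model Glyma13g41710.1 was at 17.9, 7.20 and 1.82 RPKM in CS and 25.9, 18.4 and 5.16 in CD, and at 20.5, 3.80 and 1.03 in HS and 22.1, 9.58 and 0.986 in HD. Cyclin D3 was thus close to its youngest level in CD and HD at 100-200 mg, and the histone was lower than at 50-100 mg in every line. The histone models resemble each other, and reads placed at several of them were counted for each.

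Of the 163 models placed in a transcription factor category 13 were members and 15 others were lower in both defective lines at 100-200 mg. The 13 include the histone model Glyma13g41710.1, which the cell division list counts as well. Among the members were 3 models annotated as MYB86, and the most abundant were a C2H2 zinc finger model and the MYB160 model Glyma03g38660.1. The latter was at 35.4, 16.9 and 2.48 RPKM in CS and 18.8, 39.1 and 1.97 in CD, and at 33.1, 27.6 and 3.0 in HS and 28.4, 66.9 and 1.55 in HD. Its level in both defective lines was thus below that of the standard line at 50-100 mg and above it at 100-200 mg. The zinc finger model Glyma18g07330.1 had the same crossing, with 53.1 RPKM in CS and 33.1 in CD at 50-100 mg and 28.4 and 59.6 at 100-200 mg. Of the 13, 9 fell in the late contrast in the defective lines and none rose. Of the 160 tested models of the whole list 40 fell and 14 rose.

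Hormone-related members were 8 of 60 auxin models and 2 of 27 gibberellin models. Glyma04g02780.1, annotated as induced by indole-3-acetic acid, was at 14.7, 14.4 and 1.19 RPKM in CS and 5.10, 31.4 and 2.19 in CD, and at 14.2, 5.46 and 1.02 in HS and 6.69, 18.9 and 1.37 in HD. It was 1 of 3 members below the standard line by more than 2-fold in both backgrounds at 50-100 mg. The others were a pair of protease inhibitor and lipid transfer proteins, Glyma07g16770.1 (31.0 RPKM in CS, 11.4 in CD, 6.78 in HS and 3.30 in HD) and Glyma18g41320.1 (39.7, 13.7, 5.94 and 2.63 RPKM in the same order). At 100-200 mg Glyma18g41320.1 was at 25.1 RPKM in CS, 69.2 in CD, 2.53 in HS and 9.89 in HD. All 3 went from below to above the standard line between these stages in both backgrounds. Among all models past 5 RPKM in both pairs 0.0309% were lower in both at 50-100 mg, and 0.26% were higher, where 0 members were.

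At the outer stages the members differed between the genotypes in both directions, with medians near 0. The median log2 ratio of defective to standard, on RPKM + 1, was 0.01 in Clark and -0.03 in Harosoy at 50-100 mg and 0.09 and -0.03 at 400-500 mg, where the models past 5 RPKM had medians of 0.03, -0.03, 0.00 and -0.08. In the limma fit with 6 pair blocks and a genotype effect for each stage no member and no other model passed an adjusted p of 0.05 at 50-100 or 400-500 mg. At an unadjusted p below 0.05 there were 27 members at 50-100 mg (12%), of 646 models in all (1.4%), and 23 members at 400-500 mg (10.2%), of 1282 models in all (2.77%). These counts hold both directions. The standard libraries of these stages also set the range criterion, and the error of the fit includes the libraries that chose the members. The shares of members and of all models are therefore not independent of the choice, and the unadjusted counts are a description.

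**Figure D4:**
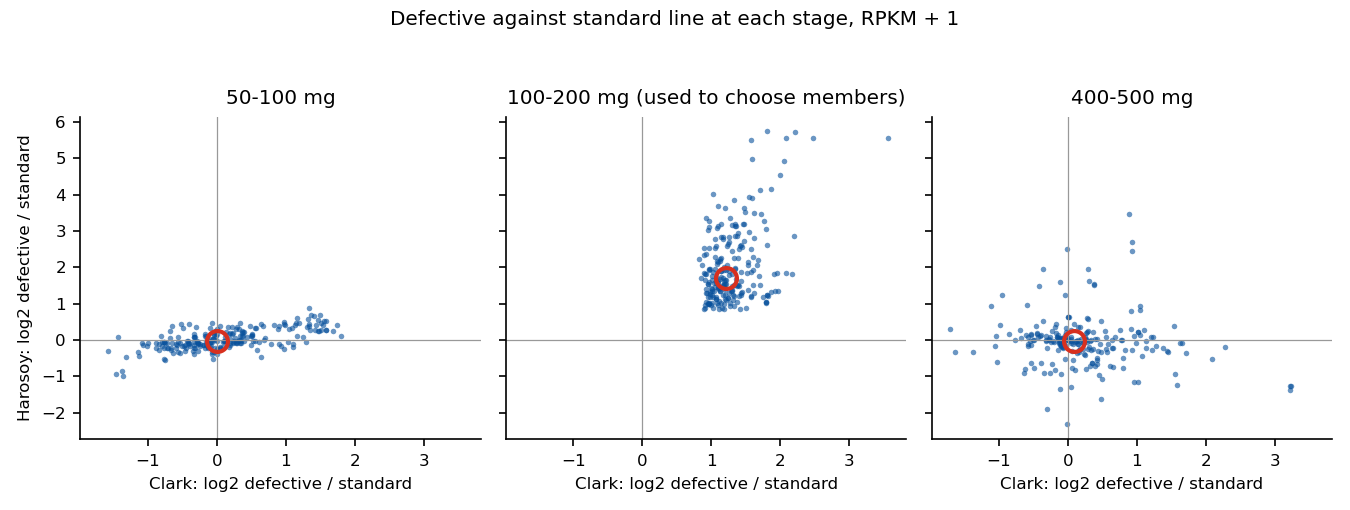
Log2 ratio of defective to standard, on RPKM + 1, in Harosoy against Clark for each of the 225 members at the 3 stages; the open circle is the median. The middle panel shows the ratios that chose the members, and at 50-100 mg the spread is wider in Clark than in Harosoy.

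In Clark at 50-100 mg 41 of the 214 members past 5 RPKM were at least 2-fold higher in CD (19.2%) and 12 were at least 2-fold lower (5.61%), where 2.91% and 1.02% of all models past 5 RPKM were. In Harosoy 0 of 208 were higher and 3 were lower, where 0.298% and 0.273% of all models were. The 41 are defined by the Clark ratio at 50-100 mg, so their difference there is fixed in advance, and the CS library of that stage also sets the range criterion. For most of the 41 the CD level at 100-200 mg exceeded 2 times the highest CS library, as for Glyma05g28700.1 (3.28 times). Those members met that criterion only through Harosoy. For them a fall in HS follows in part from the choice, so the contrast of CS and HS in the 41 is a description. The median level of the 41 was 32.4 RPKM in CS and 77.4 in CD at 50-100 mg and 29 in CS and 83.8 in CD at 100-200 mg. They were thus nearly level from 50-100 to 100-200 mg in both Clark lines and differed at both stages. In Harosoy their medians were 29.4 RPKM in HS and 39.3 in HD at 50-100 mg, and 2.70 and 25.7 at 100-200 mg. The other 184 members had medians of 16.6 RPKM in CS and 16.8 in CD at 50-100 mg. The 41 were chosen on their values and get no test.

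The 2 backgrounds ranked the members alike at 50-100 mg, though on different scales. Of the 41 members, 34 lay above 0 in Harosoy as well, with log2 ratios from -0.26 to 0.88 and a median of 0.36, where 61.2% of all models higher in CD by the same criteria lay above 0. Across the 203 members past 5 RPKM in both pairs the log2 ratios had a Pearson r of 0.66 and a Spearman rho of 0.62, and across 22683 models r was 0.36 and rho 0.21. The pairs share no library, but they share depth and model length, and genes are not replicates. At 400-500 mg r was -0.27 over 46 members and -0.31 over 21672 models.

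All 7 members annotated as small cysteine-rich peptides, secreted proteins of a large family that includes defensins and pollen coat ligands, were among the 41. The name search behind this list found no other models, but 1 of the annotation tables was used in shortened form and defensins under other names were not searched for. Glyma09g06550.1 (LCR19) was at 107, 102 and 0.596 RPKM in CS and 267, 260 and 0 in CD, and at 82.2, 7.97 and 0.337 in HS and 105, 78.1 and 0.376 in HD. Its neighbour Glyma09g06540.1, also LCR19, was at 67.5 and 175 RPKM in CS and CD at 50-100 mg. Glyma08g24540.1, related to a pollen coat protein that binds an S locus-related glycoprotein, was at 153, 153 and 1.07 RPKM in CS and 461, 321 and 0 in CD, and at 176, 25.3 and 0.588 in HS and 211, 86.7 and 0.410 in HD. CS held these peptides at 100-200 mg, HS did not, and CD was above CS at both younger stages. In CD at 100-200 mg all 7 except Glyma08g24530.1 exceeded 2 times the highest CS library. The peptides that did met the range criterion only through Harosoy. That asks for a higher HS library at another stage, so the contrast of CS and HS follows in part from the choice and is a description. At 50-100 mg the median of the 7 log2 ratios was 1.59 for the Clark pair and 0.28 for the Harosoy pair, and all 7 fell in the late contrast in the defective lines.

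**Figure D5:**
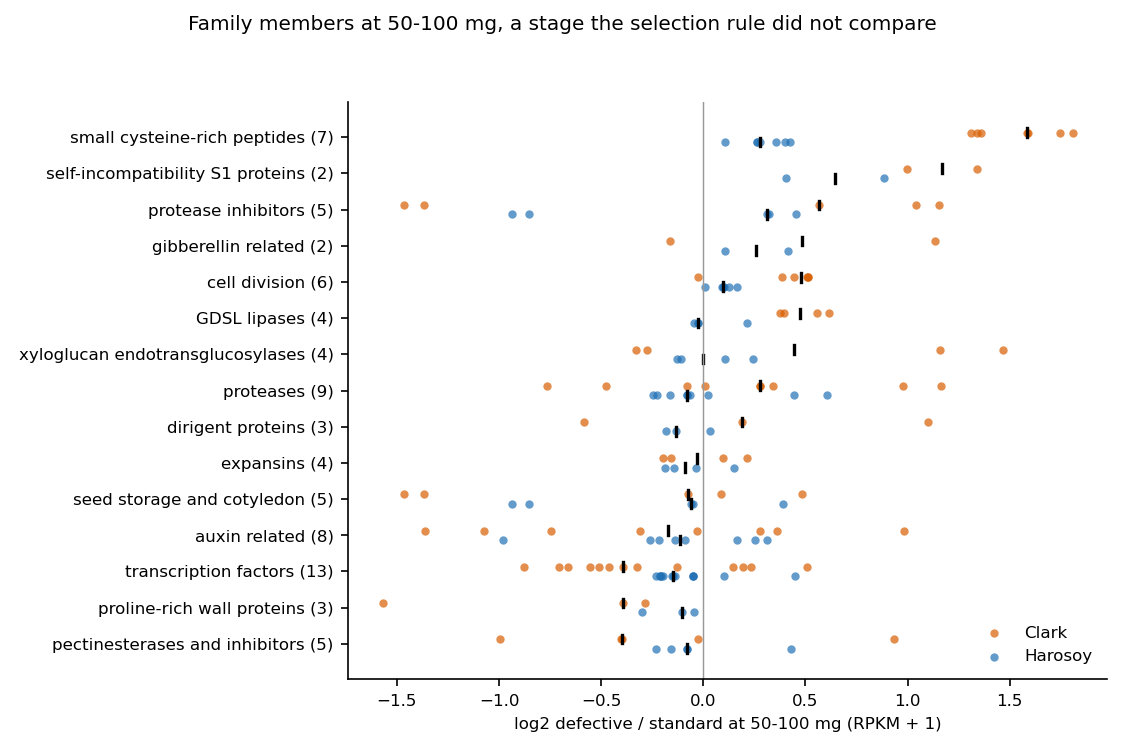
Log2 ratio of defective to standard at 50-100 mg for the members of each family list (number of members in brackets), in Clark and Harosoy, with a bar at the median of each. Small cysteine-rich peptides had the highest medians in Clark, at 1.59, and the 3 proline-rich members were at a median of -0.40.

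The 41 also held 2 of the 5 protease inhibitor members, 1 of the 2 gibberellin members and both self-incompatibility members. Of the other protease inhibitors, Glyma07g16770.1 and Glyma18g41320.1 were lower in CD at 50-100 mg, as given above, and the cystatin Glyma07g39590.1 was at 74.2 RPKM in CS and 110 in CD. Glyma08g17920.1 (cysteine proteinase inhibitor 5) was at 79.7, 99.2 and 0.327 RPKM in CS and 179, 307 and 0 in CD, and at 62.7, 7.25 and 0.0936 in HS and 86.1, 92.4 and 0.185 in HD. The Kunitz trypsin inhibitor Glyma16g33120.1, was at 162, 157 and 0.867 RPKM in CS and 334, 322 and 0.0940 in CD, and at 37.9, 1.65 and 0.116 in HS and 47.2, 41.7 and 0.114 in HD. Glyma13g08890.1, the gibberellin-regulated protein, was at 247, 263 and 1.05 RPKM in CS and 544, 560 and 0 in CD, and at 167, 16.8 and 0.301 in HS and 222, 149 and 0.397 in HD. The self-incompatibility protein Glyma08g46780.1, whose name comes from pollen recognition in poppy, was at 22.2, 30.1 and 0.105 RPKM in CS and 57.7, 89.8 and 0 in CD. It was at 16.2, 0.417 and 0.0262 RPKM in HS and 30.8, 20.4 and 0.0691 in HD.

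Of the 41, 19 were unknown proteins or had no entry, as were 69 of the other 184, and their models were shorter, with a median length of 500 bases against 1197. Unknown proteins formed 2 gene clusters, the only runs of at least 3 member loci on a chromosome within 10 loci of the next, and 5 of these 6 loci were among the 41, Glyma13g01710.1 being the exception. On chromosome 11 Glyma11g27320.1 was at 86.7, 43.5 and 0.501 RPKM in CS and 225, 205 and 0 in CD, and at 68.9, 0.537 and 0.206 in HS and 111, 79.9 and 0.0777 in HD. Its neighbours Glyma11g27300.1 and Glyma11g27310.1 had 0.162 and 0.394 RPKM in HS against 53.3 and 65 in HD at 100-200 mg. On chromosome 13 Glyma13g01680.1, Glyma13g01700.1 and Glyma13g01710.1 were at 122, 105 and 290 RPKM in CD and at 42.4, 37.4 and 147 in CS at 50-100 mg. At 100-200 mg the cluster on chromosome 13 was at 0.495, 10.3 and 20.4 RPKM in HS, against 18.1, 39.1 and 77.5 in HD. Members lay on all 20 chromosomes, from 4 to 17 loci each, and 42 loci lay in 20 groups of neighbours.

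At 400-500 mg these genes were near 0, and in CD they were listed at 0 more often than elsewhere. Of the 41, 31 were under 1 RPKM in all 4 libraries of that stage and 27 had no alignment in CD. Over the whole list 31 members had no alignment in CD (13.8%), 2 in CS (0.889%), 5 in HS (2.22%) and 8 in HD (3.56%), where 26.3%, 23.9%, 24.7% and 25.6% of all 78773 models had none. The storage protein sums given above also differed between CS and CD at both outer stages, and their part in these Clark differences was not tested. CD at 400-500 mg was also the library with the fewest alignments. The part of depth in this difference was not tested.

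Not every member was at rest at 400-500 mg. In Clark 23 of the 65 members past 5 RPKM were at least 2-fold higher in CD (35.4%) and 2 were lower, where 1.27% and 1.96% of all models past 5 RPKM were. In Harosoy 12 of 53 were higher (22.6%) and 10 lower (18.9%), with a background of 4.98% and 4.66%. The largest ratio in Clark belonged to serine carboxypeptidases, proteases or acyltransferases of the vacuole and wall. Glyma12g01260.1 was at 184, 103 and 3.25 RPKM in CS and 233, 267 and 38.8 in CD, and at 250, 64.8 and 5.86 in HS and 236, 182 and 1.85 in HD. CD thus kept more than CS and HD less than HS in the oldest seeds. Glyma09g36080.1 and Glyma12g01260.1 had proportional values in the 12 libraries, with ratios from 1.05 to 1.45, and are not independent measurements. The auxin-induced models Glyma16g09760.1 and Glyma16g09770.1 behaved likewise, with 26.2 and 28.3 RPKM in CS, 53.7 and 56.2 in CD, 30.1 and 33.8 in HS and 12.9 and 14.5 in HD. Glyma10g28580.1, annotated as a nodulin MtN21 protein, was higher in both defective lines, at 13.1 RPKM in CS, 28.2 in CD, 21.3 in HS and 38.8 in HD.

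The members that rose late were not early genes. The 7 that rose in the defective lines from 50-100 to 400-500 mg were 6 loci, and the largest change was that of Glyma10g28350.1, an unknown protein, by 2.59 ± 0.24 (SE, limma adjusted p = 0.000685). It was at 1.52, 3.29 and 14.8 RPKM in CS and 1.42, 8.70 and 11.3 in CD, and at 2.44, 3.75 and 11 in HS and 1.40, 7.64 and 16.2 in HD. The pectin acetylesterase Glyma19g41240.1, which removes acetyl groups from pectin, was at 3.6, 3.94 and 18.5 RPKM in CS and 7.79, 9.72 and 13.6 in CD, and at 3.49, 2.70 and 27.2 in HS and 3.03, 5.70 and 78.2 in HD. The phosphatase model Glyma08g20820.1 was at 5.79 RPKM in CS, 14.4 in CD, 3.43 in HS and 12.6 in HD at 100-200 mg, and higher at 400-500 mg in all 4 lines. For these 3 members the 100-200 mg library of the defective lines lay between the young level and a higher old one, the reverse of the main course. Glyma08g24780.1, annotated as the dehydration-responsive RD22 protein, did not pass the test and was at 58.6, 30.5 and 218 RPKM in CS, 145, 69.5 and 145 in CD, 34.9, 21.5 and 376 in HS and 33.6, 63.4 and 731 in HD.

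The thresholds cut through a continuous range. Just inside the 2-fold criterion lay Glyma10g15280.1 (acid phosphatase 1), Glyma16g33470.1 (ATP-binding cassette transporter) and Glyma20g21440.1, with smaller ratios of 2.005, 2.007 and 2.008. Just outside lay Glyma03g06520.1, Glyma13g28180.3 and Glyma06g02490.1 (a subtilisin-type protease), with 1.9997, 1.9986 and 1.9971. The members nearest to the upper limit of the range (lower ratio of the 2 backgrounds) were Glyma06g05490.1 (a beta-conglycinin subunit), Glyma11g27300.1 and Glyma12g00520.1, at 1.90, 1.81 and 1.79 times the highest standard library. The models nearest beyond it were Glyma13g06860.1, Glyma11g06850.1 (cystatin-like) and Glyma10g13900.1 (a GDSL lipase), at 2.007, 2.03 and 2.03 times, and 39 models in all lay beyond it in both backgrounds.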

How the data were processed

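RNA-Seq libraries of pooled seed coats (12, 1 per line and stage) were aligned by the authors with Bowtie (version not given in the sources used here) to 78773 soybean gene models, keeping reads with multiple placements, and deposited as RPKM values per model. Splice models and near-identical genes therefore share reads. Alignments per model were recovered from the steps between low RPKM values and served for depth only. Members were chosen on the RPKM as deposited, with no pseudocount. Tests used limma 3.58.1 in R 4.3.3 on log2(RPKM + 1), over the 46237 models that reached 1 RPKM in 2 or more libraries, with Benjamini-Hochberg adjustment over all of them. Fold changes on this scale understate the change of low genes. The fit was also run on simulated data with normal noise and 200 changed models. Those data held no other stage or background differences, so the run checks the code and not the error rate in these libraries. The genotype fit had 3 residual degrees of freedom and the stage fit 4. Annotations, and the family lists taken from them by name, came from the study's tables, 1 of them in shortened form, which covered 191 of the 225 members. The named members were the 10 most abundant and the 10 with the largest smaller ratio at 100-200 mg, those in the study's selected gene lists, gene clusters, the 2 most abundant of each family, the 5 lowest p-values of each contrast, members past 2-fold in both backgrounds at an outer stage, and the models at the thresholds. Others were named after their values were seen. The limit for proportional pairs (SD of the log2 ratio under 0.16, 10 pairs of loci) was set after seeing the data. The members and lists were chosen with earlier results of these data known. Alternatives are given in the closing section.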

Additional observations from a re-analysis of the deposited data

Results flagged for a closer look

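At 400-500 mg 6 member models from 5 loci were at least 2-fold higher in the defective line of one background and at least 2-fold lower in that of the other. With 1 library per line and stage the difference between backgrounds was not tested. The log2 ratio of defective to standard, on RPKM + 1, was 3.21 in Clark and -1.37 in Harosoy for Glyma09g36080.1 (serine carboxypeptidase-like 40). It was 3.23 and -1.27 for Glyma12g01260.1 and 3.23 and -1.27 for its second splice model. The unknown protein Glyma10g05920.1 had ratios of 1.58 and -1.23, and the auxin-induced model Glyma16g09760.1 had 1.01 and -1.16. The ATP-binding cassette transporter Glyma16g33470.1 went the other way, with -0.95 in Clark and 1.23 in Harosoy.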

How the results depend on the processing

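Of the alternative values, 96 stayed within the limits set for a change and 25 moved, and no tested call turned its direction. The number of members was 41 at 3-fold, 146 at a minimum of 10 RPKM and 2239 with no minimum. The count that fell late in the defective lines stayed within 1.5 times of 181 under every alternative run (127 to 181), and the genotype effects at 50-100 and 400-500 mg stayed at 0 members. At 3-fold the 50-100 mg counts were 7 higher and 1 lower in Clark, 0 lower in Harosoy and 0 lower in both. At 400-500 mg they were 12 higher and 0 lower in Clark, 7 and 6 in Harosoy, and 0 higher in both. With no minimum RPKM the 400-500 mg counts were 57 higher and 51 lower in Clark, 30 and 50 in Harosoy, and 6 and 11 in both. With 1 model per locus 1 was higher in both at 400-500 mg. The median log2 ratio at 50-100 mg was -0.024 in Clark and 0.0049 in Harosoy after rescaling each pair to a median of 0, and 0.047 in Clark with 1 model per locus. At 400-500 mg it was 0.18 in Clark and -0.13 in Harosoy with a pseudocount of 0.1 RPKM. The median position in CD was 0.99 after quantile normalization. The causes of these shifts were not tested. The genotype fit already takes the isoline pairs as blocks. Beyond that, no paired analysis was possible because each line and stage had 1 library and the labels give no replicate numbers. Leaving out a background leaves no residual degrees of freedom and was not run.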
